A study of Mus musculus with 26 samples.

Results

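The respiratory chain and ATP synthase genes of the mouse choroid plexus (ChP) were described here by their RNA levels. The members were the genes whose symbols follow the naming of the subunits of complex I (Nduf, mt-Nd), complex II (Sdh), complex III (Uqcr, mt-Cytb), complex IV (Cox, mt-Co) and ATP synthase (Atp5, mt-Atp), without pseudogenes marked -ps and with a mean level of at least 1 CPM (read counts scaled to library size) in both Ctrl and SCNx. Of 102 matching symbols 94 passed the minimum, out of 13697 genes tested and 55416 listed. There were 81 nuclear-encoded and 13 mitochondrial-encoded members. The lowest member was Ndufa4l2, with a mean of 1.15 CPM in Ctrl and 1.20 in SCNx. The highest of the 8 matching genes below the minimum was Cox6c2, with 0.724 and 0.581 CPM, and it was followed by Ndufa11b, Ndufs6b, Cox7b2, an additional Atp5o entry, Cox6a2, Ndufb11b and Cox8c, which had means of at most 0.204 CPM in Ctrl. The rule does not take in the subunit genes Ndufab1, Cox4i1, Cox4i2 and Cyc1. Of these, Cox4i2 was below the minimum and was not tested, and the others are given with the assembly factors.

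The ChP of the 4th ventricle was taken from adult male C57Bl6J mice after sham surgery (Ctrl, 12 mice) or a lesion of the suprachiasmatic nuclei, the central circadian pacemaker (SCNx, 12 mice). Sampling ran through constant darkness at steps of 4 h, from CT0 to CT44 (CT, circadian time), with 1 mouse per group and step, so that a library is named by its group and time. The KO mice (FoxJ1-ERT2-Cre+/-; Bmal1fl/fl) received tamoxifen in the diet, which deletes the clock gene Bmal1 in cells that express Foxj1, the gene of a regulator of motile cilia. This driver acts in ciliated epithelium and not in every cell of the ChP. The KO mice were adult males, older than the others, kept under 12 h of light a day, and 1 was killed at ZT7 and 1 at ZT18 (ZT, hours after lights on). Their ChP was cut by laser capture from frozen brain and prepared with a total RNA kit, whereas Ctrl and SCNx ChP was pulled with pincers and prepared with an mRNA kit. Genotype, kit, dissection, lighting and age therefore cannot be told apart in any comparison with KO.

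Ctrl and SCNx libraries held from 38751162 to 49527614 counts and the KO libraries 17425176 and 18059213. The 10 markers of ChP epithelium summed to between 106594 and 167323 CPM in Ctrl and SCNx, and to 91447 and 79805 CPM in KO. Markers of neurons and cerebellum had a median of 27.7 CPM in Ctrl and 26.0 in SCNx, but 403 CPM were found in Ctrl CT4, 598 in the library SCNx CT32, and 351 and 413 in KO. Hepatocyte markers summed to 2218 CPM in Ctrl CT16 and 11671 in SCNx CT0, while the next highest, Ctrl CT40, had 34.5 CPM. Arntl, the gene of BMAL1, was measured at 11.1 CPM at ZT7 and 9.06 at ZT18 in KO, inside the Ctrl range of 2.01 to 39.4, and a count over the whole gene does not show whether the floxed part is gone. In a bulk sample, fewer cells of a type and less RNA per cell cannot be told apart.

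Complexes I to IV pass electrons from NADH and succinate to oxygen. Complexes I, III and IV also pump protons across the inner mitochondrial membrane, and ATP synthase uses the proton gradient to make ATP. All of these complexes except complex II combine proteins encoded in the nucleus with a few encoded in mitochondrial DNA, whose genes are transcribed together as long precursors and then cut apart. ChP epithelium is rich in mitochondria, since its secretion of cerebrospinal fluid depends on the sodium-potassium pump.

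Several mitochondrial-encoded members have near-identical copies in the nuclear genome, so their values depended on how reads were divided. The copies are annotated as unprocessed pseudogenes on chromosome 1. The copy Gm28437 matched mt-Co3, which encodes a core subunit of cytochrome c oxidase, over 783 bases with 0 mismatches. Gm10925 matched mt-Atp6 over 678 bases and Gm28661 matched mt-Co2 over 681 bases, both also with 0 mismatches, whereas Gm28438 differed from mt-Nd3 at 1 of 345 bases (T3C, counted from 1 at the first base of the transcript, with the mt-Nd3 base first). The first 60 bases of a pair without a difference and of the pair with a single one are shown, from the GENCODE M21 transcripts and in capitals where the members of a pair differ.
mt-Co3: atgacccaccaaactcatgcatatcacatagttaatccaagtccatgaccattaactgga
Gm28437: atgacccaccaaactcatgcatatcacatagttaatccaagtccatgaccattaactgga
mt-Nd3: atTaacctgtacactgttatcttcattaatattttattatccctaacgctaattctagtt
Gm28438: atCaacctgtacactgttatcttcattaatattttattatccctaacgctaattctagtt

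Most of the counts of these pairs had been given to the nuclear copy in Ctrl and SCNx. For mt-Co3 the copy's share ran from 79.0% to 90.5% over the Ctrl libraries (median 86.1%) and from 83.2% to 92.1% over SCNx (median 85.9%). For mt-Nd3, a subunit of complex I, it ran from 95.8% to 97.7% in Ctrl and from 95.8% to 98.3% in SCNx. The median share in Ctrl was 90.0% for mt-Co2 and 80.8% for mt-Atp6, but for mt-Co1 it was between 2.54% and 5.14%, and its partner Gm29216 matched over 483 bases with 1 mismatch. The Ctrl and SCNx ranges overlapped in every pair. In KO the shares of 4 of these copies were lower than in any Ctrl or SCNx library, between 33.7% and 34.5% for mt-Co3, 6.39% and 23.8% for mt-Nd3, 64.3% and 66.7% for mt-Co2, and 54.8% and 59.5% for mt-Atp6. For mt-Co1 the KO values of 2.49% and 5.14% spanned the Ctrl range. Levels of mt-Co2, mt-Co3, mt-Atp6 and mt-Nd3 are therefore uncertain as single genes and are not compared between KO and the other groups.

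**Figure D1:**
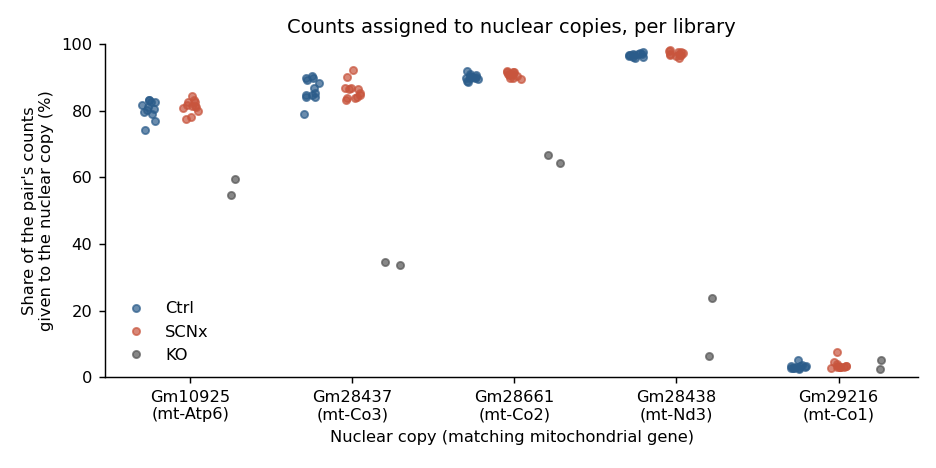
Share of the counts of each pair (nuclear copy plus mitochondrial gene) that was given to the nuclear copy, in percent, with 1 point per library of Ctrl (12), SCNx (12) and KO (2). In Ctrl and SCNx the copies of mt-Atp6, mt-Co3, mt-Co2 and mt-Nd3 took at least 74.2% of the pair in every library, and the KO points of these 4 pairs lie lower, while those of mt-Co1 overlap with Ctrl and SCNx.

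Per kilobase of transcript, the median level in Ctrl was 2004 CPM per kb over the 13 mitochondrial-encoded members. It was 147 over the 79 nuclear-encoded members with a known length and 10.3 over all genes. The 2004 is the value of mt-Atp6, whose nuclear copy took a median of 80.8% of the pair in Ctrl. The mitochondrial-encoded median is therefore uncertain and would be higher with the copies added. The highest nuclear-encoded member was Atp5b, the catalytic beta subunit of ATP synthase, with 671 CPM per kb. The lowest were Ndufa4l2, a paralogue of the complex IV subunit gene Ndufa4, with 1.23 CPM per kb, then Cox8b, then Cox7a1 with 16.2. Cox8b and Cox7a1 encode the forms of their subunits found in heart and skeletal muscle, and the forms found in most tissues, Cox8a and Cox7a2, stood at 488 and 160 CPM per kb. Cox6a2 and Cox8c, the muscle form of one subunit and the testis form of another, were among the genes below the minimum, whereas Cox6b2, known as a testis form, was measured at 113 CPM per kb beside 297 for Cox6b1.

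To ask whether loss of the pacemaker shifted the respiratory chain, SCNx was set against Ctrl over all times. In SCNx the mitochondrial-encoded members lay slightly higher and the nuclear-encoded ones about level, and 0 members of either class were called by the quasi-likelihood test of edgeR after adjustment by Benjamini and Hochberg. Over all genes tested 0% were called too. The summed level of the mitochondrial-encoded members ranged from 35537 CPM in Ctrl CT36 over a median of 52963 to 84149 in Ctrl CT4, and in SCNx from 44096 in SCNx CT12 over a median of 62254 to 70719 in SCNx CT16. The SCNx values lay inside the range of Ctrl. The nuclear-encoded sum ranged from 9960 to 11545 CPM in Ctrl (median 11031) and from 7992 to 12321 in SCNx (median 10939), so that SCNx reached both lower and higher.

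**Figure D2:**
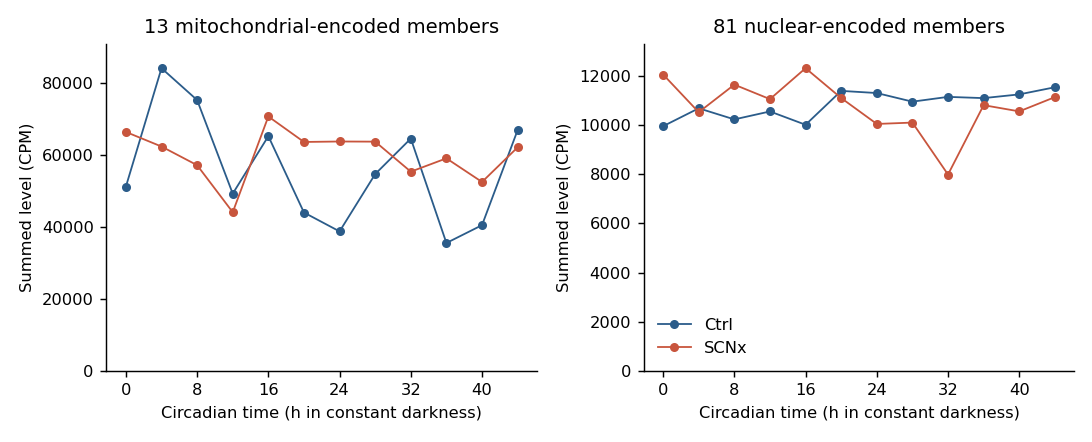
Summed level in CPM of the 13 mitochondrial-encoded members (left) and of the 81 nuclear-encoded members (right) against circadian time, with 1 library per point for Ctrl and SCNx. The mitochondrial-encoded sum of Ctrl spans 35537 to 84149 CPM, and the nuclear-encoded sum is lowest in SCNx CT32 at 7992 CPM.

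The median log2 fold change (SCNx minus Ctrl) was 0.079 over the mitochondrial-encoded members, of which 11 were higher and 2 lower in SCNx, and -0.0080 over the nuclear-encoded members, of which 30 were higher and 51 lower. Over all genes the median was 0.011, with 56.5% higher. At an unadjusted p under 0.05 stood 1 nuclear-encoded and 0 mitochondrial-encoded members, where 9.37% of all genes did, and 0 members were called by DESeq2, which called 0.0511% of all genes, or by limma-trend, which called 0%. Both medians moved with single libraries. Without SCNx CT32, which was rich in neuron markers, the nuclear-encoded median was 0.020, and without Ctrl CT4 the mitochondrial-encoded one was 0.14. The groups overlapped in all 94 members, but overlap was not counted over all genes, so this does not set the members apart.

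Among the subunits of complex I, the entry point for electrons from NADH, the log2 fold change lay between -0.086 for Ndufa13 and 0.12 for mt-Nd4. Ndufa13, also known as a regulator of cell death, was measured between 122 and 157 CPM in Ctrl (median 142) with a median of 129 in SCNx, a log2 fold change of -0.086 ± 0.06 (SE) with an adjusted p of 0.68 by edgeR. In complex II, which takes electrons from succinate and is encoded in the nucleus alone, all 4 members lay between -0.013 for Sdhd and 0.019 for Sdhb. Sdha, the flavoprotein of complex II, had 376 ± 15.6 CPM in Ctrl and 380.3 ± 20.2 in SCNx (SD, n = 12 each). In complex III the range ran from -0.058 for Uqcr11, a small accessory subunit, to 0.14 for mt-Cytb, the only mitochondrial-encoded subunit of this complex. None of these differences exceeded the spread between libraries.

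The smallest p between the groups belonged to Cox8b in complex IV. Cox8b ran from 3.30 CPM in Ctrl CT8 over a median of 5.32 to 7.15 in Ctrl CT28, and from 4.68 in SCNx CT32 over a median of 6.74 to 11.1 in SCNx CT20. SCNx was higher on average but the groups overlapped, and the difference of 0.36 ± 0.14 (SE) on the log2 scale had an adjusted p of 0.45 by edgeR (0.0137 before adjustment). The striated and smooth muscle markers summed to a median of 48.6 CPM in Ctrl and 56.1 in SCNx. Of these markers, Acta1 and Ckm were at or under 0.60 CPM in every library. Myh7 had medians of 31.4 CPM in Ctrl and 35.1 in SCNx, Myh11 7.65 and 13.2, and Des 6.82 and 6.97. Tnnt1 had 1.57 and 1.36, and Actg2 0.048 and 0.022. The part of such cells in the value of Cox8b was not tested. The common form Cox8a had a log2 fold change of -0.051 ± 0.07 (SE). Atp5g1, 1 of 3 genes for the same c subunit of the ATP synthase ring, had 305 ± 27.1 CPM in Ctrl and 281 ± 36.3 in SCNx (SD, n = 12 each), a log2 fold change of -0.12 ± 0.07 (SE) with an adjusted p of 0.60 by edgeR. The other c subunit genes, Atp5g2 and Atp5g3, had -0.067 and -0.0049. The mitochondrial-encoded mt-Atp8, a small subunit of the proton channel, had 0.25 ± 0.15 (SE) with an adjusted p of 0.62 by edgeR.

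**Figure D3:**
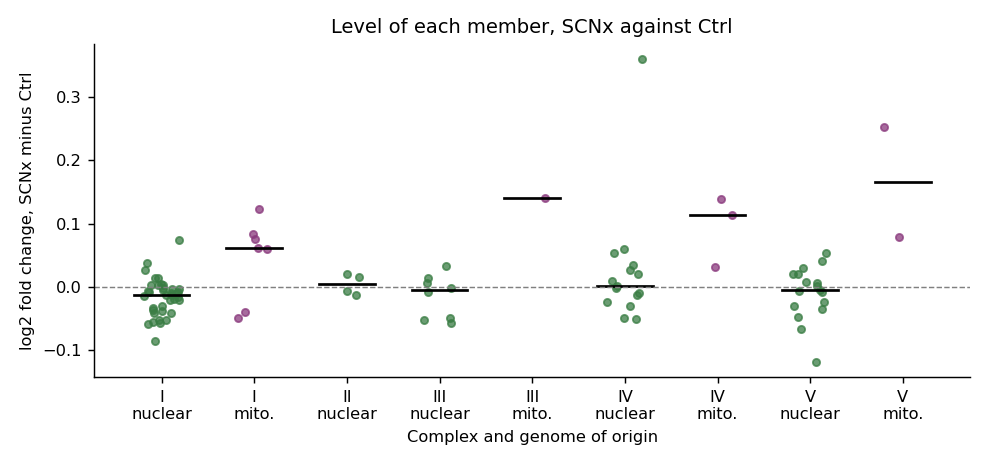
Log2 fold change of each member between SCNx and Ctrl (positive values are higher in SCNx), by complex and by genome of origin, with 1 point per gene and a bar at the median. The nuclear-encoded points centre on 0, 11 of 13 mitochondrial-encoded points lie above 0, and the highest point is Cox8b at 0.36.

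The remaining mitochondrial-encoded subunits of complex I were mt-Nd1 with a log2 fold change of 0.076, mt-Nd2 with 0.083, mt-Nd4l with 0.059, mt-Nd5 with 0.061, mt-Nd3 with -0.049 and mt-Nd6, the only protein gene on the light strand of mitochondrial DNA, with -0.041. The largest SE among them was 0.19, for mt-Nd3. In complex IV, mt-Co1 had 0.11, mt-Co2 0.031 and mt-Co3 0.14, and in ATP synthase mt-Atp6 had 0.079. With the counts of the copies added back, mt-Nd3 turned to 0.10 and mt-Co2 stood at 0.15, and mt-Co3 and mt-Atp6 had 0.13 each, so that the negative value of mt-Nd3 depended on how its reads were divided.

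The 19 nuclear-encoded genes of the list named catalytic core had log2 fold changes between -0.053 and 0.053 (7 higher and 12 lower in SCNx). The 14 genes of tissue isoforms ran from -0.12 (Atp5g1) to 0.36 (Cox8b). Within Ctrl the SD of log2 CPM lay between 0.060 and 0.10 over the catalytic core and between 0.081 and 0.37 over the tissue isoforms. Ndufs1, which carries iron-sulphur clusters of complex I, ranged from 152 to 177 CPM (median 160), and Atp5b from 1199 to 1363 CPM (median 1287).

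RNA of the mitochondrial-encoded members varied more between Ctrl libraries than that of the nuclear-encoded ones, and the difference was smaller in SCNx. The SD of log2 CPM over the 12 Ctrl libraries had a median of 0.42 over the mitochondrial-encoded members and of 0.11 over the nuclear-encoded ones, against 0.14 over all genes. In SCNx the medians were 0.24 and 0.19, against 0.16. All 13 mitochondrial-encoded members lay above their own mean in Ctrl CT4, Ctrl CT8, Ctrl CT16 and Ctrl CT44, and all 13 below it in Ctrl CT12, Ctrl CT20, Ctrl CT24, Ctrl CT36 and Ctrl CT40. Each gene's share of the mitochondrial-encoded sum had a median SD of 0.13 on the log2 scale in Ctrl, where the levels had 0.42, and with the counts of the nuclear copies added back to their partners the values were 0.047 and 0.40. The genes differed in this. mt-Co1, the catalytic subunit of complex IV and the one with the steadiest share, held from 30.8% to 32.2% of the sum without the copies in every Ctrl library while its level ran from 11270 to 26591 CPM. The share of mt-Co3 ran from 1.10% to 2.47%, and that of mt-Nd4l, a small subunit of complex I, had an SD of 0.19 on the log2 scale.

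The ratio of the mitochondrial-encoded to the nuclear-encoded sum, which needs no scaling between libraries, ran from 3.20 in Ctrl CT36 over a median of 5.07 to 7.87 in Ctrl CT4, and in SCNx from 3.99 in SCNx CT12 over a median of 5.65 to 6.93 in SCNx CT32. SCNx lay inside the range of Ctrl. The libraries with the highest ratio of each group, Ctrl CT4 and SCNx CT32, had neuron markers at 403 and 598 CPM. Ctrl CT8, with a ratio of 7.35, had neuron markers at 19.4 CPM. The nuclear-encoded members fell furthest in SCNx CT32, where all 81 lay below their own mean, with a median of -0.44 on the log2 scale, and the epithelial markers were at their lowest (106594 CPM). In SCNx CT16 all 81 lay above it, with a median of 0.22 and epithelial markers at 160187 CPM. Blood markers summed to 1446, 1320, 1528 and 593 CPM in Ctrl CT4, Ctrl CT8, Ctrl CT16 and Ctrl CT44. In these libraries all 13 mitochondrial-encoded members lay above their own mean. Where all 13 lay below it, the sums were 882 (Ctrl CT12), 897 (Ctrl CT20), 315 (Ctrl CT24), 534 (Ctrl CT36) and 303 CPM (Ctrl CT40). The 18S ribosomal RNA gene Rn18s ranged from 30679 to 71738 CPM in Ctrl. The part of cell composition or RNA preparation in these shifts was not tested.

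The design also asks which genes followed a 24 h rhythm and whether this was lost in SCNx. In Ctrl, Ndufb2 was the only member called rhythmic, 1 of 81 nuclear-encoded and 0 of 13 mitochondrial-encoded, where 10.7% of all genes were called (same edgeR test and adjustment). At an unadjusted p under 0.05 stood 3 nuclear-encoded members (Ndufb2, Ndufs1 and Ndufa4l2) and 1 mitochondrial-encoded member (mt-Nd1), where 24.8% of all genes did. Ndufa4l2 was the member closest to the minimum level. Among the members, Ndufb2 alone was called by DESeq2, which called 15% of all genes, and by limma-trend, which called 10%. The share of members called thus lay below that of all genes.

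Ndufb2 (ENSMUSG00000002416) encodes an accessory subunit in the membrane arm of complex I. Its level peaked late in the subjective night on both days, at 91.3 CPM in Ctrl CT20 and 96.0 in Ctrl CT44. It was lowest around the middle of the day, at 66.4 CPM in Ctrl CT8 and 66.9 in Ctrl CT32. Over the 6 pairs of the same clock time, the second day was between 0.979 and 1.11 times the first. The fitted log2 amplitude was 0.22 ± 0.03 (SE) with a peak at CT21.4 and an adjusted p of 0.0020 by edgeR. In SCNx the level ran from 59.6 CPM in SCNx CT32 over a median of 73.0 to 86.0 in SCNx CT20, with an amplitude of 0.13 ± 0.04 (SE), a peak at CT19.4 and an adjusted p of 0.19. The rhythms of the groups were not shown to differ (unadjusted p = 0.0895, adjusted p = 0.40 by edgeR).

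**Figure D4:**
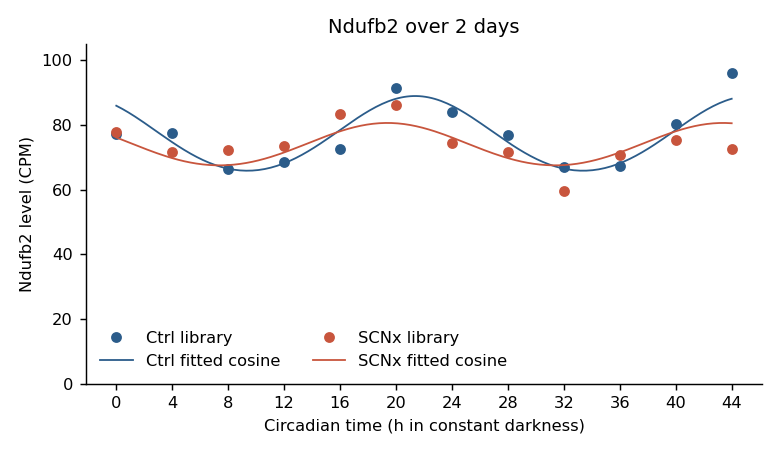
Level of Ndufb2 in CPM against circadian time in Ctrl and SCNx, with 1 library per point and the fitted 24 h cosine as a line. The Ctrl points reach 91.3 and 96.0 CPM at CT20 and CT44, and the fitted curve of SCNx is flatter.

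The 250 bases before the annotated start of Ndufb2, at chr6:39592315-39592564 on the plus strand of GRCm38.p6 (RefSeq), are shown because this was the member called rhythmic. Capitals mark AGGTCA, the half-site bound by nuclear receptors such as ROR and ERR factors, at position -180 from the start.
Ndufb2: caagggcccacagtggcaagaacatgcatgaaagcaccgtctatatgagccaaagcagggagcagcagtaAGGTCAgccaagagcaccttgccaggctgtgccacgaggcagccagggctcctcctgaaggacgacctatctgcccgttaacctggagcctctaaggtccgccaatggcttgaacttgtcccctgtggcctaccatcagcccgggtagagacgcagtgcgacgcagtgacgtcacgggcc
Promoters were found for 68 members by symbol, and motifs were searched on both strands of the 250 bases, where 2 motifs may share bases. AGGTCA was present before 10 of these members (14.7%) and before 13.8% of all 27025 promoters. The E-box CACGTG, bound by the BMAL1 and CLOCK pair, was present before 6 members (8.82%) and 6.05% of all promoters, and the D-box TTANGTAA before 2 (2.94%) and 2.11%. GCATGCGC, the core of the site of NRF1, a factor known for respiratory chain genes, was present before 8 members (11.8%) and 2.32% of all promoters. CCGGAAG, the core of the site of ETS factors such as GABPA, was present before 11 members (16.2%) and 7.05%. Ndufb2 held the nuclear receptor half-site and none of the other 4 motifs in this window.

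Most other members had shallow fitted curves. The median log2 amplitude in Ctrl was 0.073 over the nuclear-encoded members and 0.11 over all genes. Ndufs1 had an amplitude of 0.10 ± 0.02 (SE) with a peak at CT8.79 and an adjusted p of 0.14 by edgeR, and it was called when SCNx CT32 was left out (adjusted p = 0.0225) and when the groups were fitted separately (adjusted p = 0.0261). Of the 81 nuclear-encoded members, 50 had the fitted peak between CT18 and CT24 (61.7%), against 29.6% of all genes. Of the 19 catalytic core genes 1 peaked in this window and 8 between CT6 and CT12, and 0 of the 4 genes of complex II peaked in it. In SCNx, where no gene was called rhythmic by edgeR, 56 nuclear-encoded members (69.1%) peaked between CT18 and CT24, against 25.3% of all genes. The fitted peaks of a group share the same 12 libraries and are given with no test.

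The mitochondrial-encoded members had a median amplitude of 0.23 in Ctrl, larger than that of the nuclear-encoded ones, with adjusted p-values between 0.19 and 0.91 by edgeR. Their fitted peaks lay between CT0 and CT6 for 10 members and between CT6 and CT12 for 3. The days differed widely. At the same clock time the summed level on the second day was between 0.621 and 1.52 times the first, with 84149 CPM in Ctrl CT4 and 54702 in Ctrl CT28, and 44013 in Ctrl CT20 and 66931 in Ctrl CT44. mt-Nd1, a core subunit of complex I in the membrane, ran from 3666 CPM in Ctrl CT36 to 8567 in Ctrl CT4, with an amplitude of 0.29 ± 0.15 (SE) with an adjusted p of 0.19 by edgeR (0.0445 before adjustment). The nuclear-encoded sum of Ctrl had ratios between 1.01 and 1.14. The median absolute log2 difference between the days in SCNx was 0.053 for the mitochondrial-encoded and 0.14 for the nuclear-encoded sum. These medians were 0.54 and 0.098 in Ctrl, so only the order of the medians was reversed in SCNx. Single mitochondrial-encoded ratios in SCNx still ran from 0.743 (SCNx CT40 over SCNx CT16) to 1.34 (SCNx CT36 over SCNx CT12). The lowest nuclear-encoded ratio was 0.686, for SCNx CT32 over SCNx CT8.

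In SCNx 0 members of either class were called rhythmic by edgeR, where 0% of all genes were, and 1 nuclear-encoded member (Ndufb2, unadjusted p = 0.00978) and 0 mitochondrial-encoded ones stood at an unadjusted p under 0.05, where 14.8% of all genes did. DESeq2 called 0 members and 3.15% of all genes, and limma-trend 0 members and 0% of all genes. The next smallest p-values belonged to Atp5h, in the stalk of ATP synthase, with an amplitude of 0.15 and an unadjusted p of 0.056, and to Ndufb6 of complex I with 0.15 and 0.0651. The median amplitude was 0.11 over the nuclear-encoded and 0.15 over the mitochondrial-encoded members, both above the 0.091 of all genes. The rhythm of Ctrl and SCNx was called different for 0 members, where 2.12% of all genes were called. At an unadjusted p under 0.05 there were 0 members as well, where 15.1% of all genes stood. DESeq2 called 0 members and 4.3% of all genes, and limma-trend 0 members and 1.63%. The smallest p after Ndufb2 belonged to Uqcrc1, a core protein of complex III, with an adjusted p of 0.42 by edgeR (0.101 before adjustment).

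The genes that build and regulate these complexes were counted from lists of assembly factors, of mitochondrial DNA copying and transcription and of regulators. Of 84 tested, 0 differed in level between the groups and 10 were called rhythmic in Ctrl (11.9%), close to the 10.7% of all genes. The subunit gene Ndufab1, the mitochondrial acyl carrier protein within complex I, was among the 4 tested genes outside the naming rule. It had an amplitude of 0.18 ± 0.03 (SE) with a peak at CT20.8 and an adjusted p of 0.0015 by edgeR. The others were not called. Cox4i1, the common form of a subunit of complex IV, had 395 ± 27.2 CPM in Ctrl and 380.3 ± 43.6 in SCNx, Cyc1, the cytochrome c1 of complex III, 116 ± 5.65 and 113 ± 13.3, and Cycs, the electron carrier cytochrome c, 115 ± 9.07 and 116 ± 11.5 (SD, n = 12 each). Among 17 assembly factors of complex I, Ndufaf4 peaked at CT21.8 and Ndufaf6 at CT11.7, and among 21 of complex IV, Cmc2 peaked at CT20.7 and the copper chaperone Cox17 at CT19.5. Bcs1l, which inserts the iron-sulphur protein into complex III, peaked at CT19.7. Of 20 genes of mitochondrial DNA copying and RNA, Polg, the DNA polymerase of mitochondria, peaked at CT20.5 with an amplitude of 0.13, and Fastkd1 and Fastkd2, which act on mitochondrial RNA, at CT21.6 and CT21.5. Of 8 regulators Esrra, a nuclear receptor that drives respiratory genes, was called, with an amplitude of 0.16 ± 0.03 (SE), a peak at CT22.3 and an adjusted p of 0.0325 by edgeR. No assembly factor of complex II or of ATP synthase was called, and 0 genes of these lists were called rhythmic in SCNx or different in rhythm between the groups.

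The KO libraries are described without a test, since there was 1 mouse at each time. The ratio of the mitochondrial-encoded to the nuclear-encoded sum was 6.21 at ZT7 and 6.44 at ZT18, inside the ranges of Ctrl and SCNx. With the nuclear copies added to the mitochondrial-encoded sum, the log2 ratio was 2.84 and 2.88 in KO and lay between 2.07 and 3.38 in Ctrl. The mitochondrial-encoded sum was 51336 and 41380 CPM and the nuclear-encoded one 8268 and 6422 CPM, the latter at ZT18 below every Ctrl and SCNx library. The mitochondrial ribosomal RNAs took 213315 and 169804 CPM in KO and between 1827 and 5155 in Ctrl, which lowers the CPM of all other genes in KO, and the kits differed. Within KO, 66 of 81 nuclear-encoded and all 13 mitochondrial-encoded members were lower at ZT18 than at ZT7, with median log2 differences of -0.31 and -0.34, while 49.3% of all genes were lower. Between the same libraries the epithelial markers went from 91447 CPM at ZT7 to 79805 at ZT18, and those of fibroblasts from 269 to 399.7, of oligodendrocytes from 304 to 392, of muscle from 99.8 to 139.5 and of neurons and cerebellum from 351 to 413 CPM. In unscaled counts, the epithelial marker Enpp2 fell from 690182 to 538905 and Ttr rose from 733597 to 861174. The fall of the epithelial sum was thus not shared by all its markers. The part of these cell types in the differences between ZT7 and ZT18 was not tested. With the library totals alone as the scale the medians were -0.19 and -0.22, and the median over all genes moved up as well, from 0.0023 to 0.12.

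The members with the lowest log2 differences were the small ATP synthase subunits Atp5l (75.1 CPM at ZT7 and 32.1 at ZT18) and Atp5md (97.8 and 45.3 CPM), followed by mt-Nd4l (84.6 and 39.3 CPM). Next, Cox7b, a small subunit of complex IV, had 205 and 97.1 CPM. Cox6a1 was higher at ZT18, with 55.7 and 68.5 CPM. Among the complexes, the 4 members of complex II had the median nearest to 0 (-0.020) and the 8 nuclear-encoded members of complex III were all lower (-0.49). Ndufb2 was measured at 54.1 CPM at ZT7 and 31.2 at ZT18, a log2 difference of -0.78, whereas the fitted Ctrl curve was 0.31 higher at 18 h than at 7 h. For Ctrl the corresponding fitted medians were 0.088 over the nuclear-encoded and -0.43 over the mitochondrial-encoded members, and the light conditions differ between these values.

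**Figure D5:**
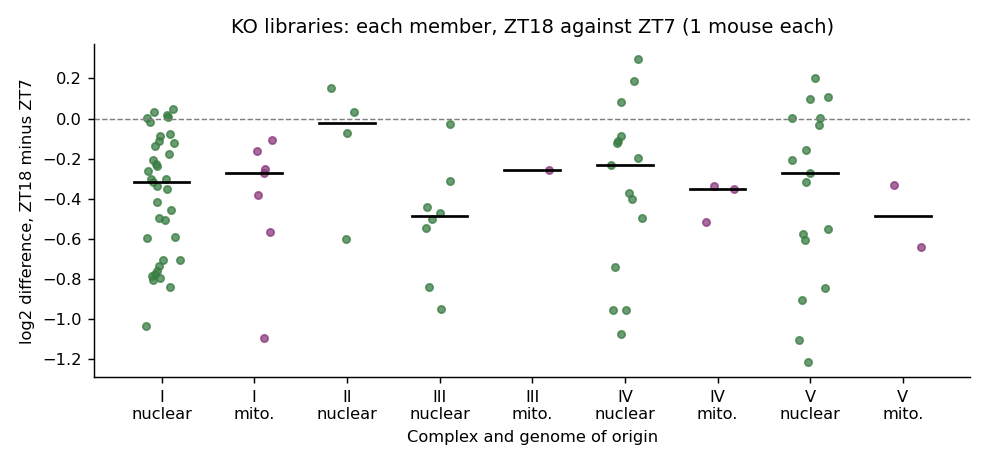
Log2 difference of each member between the KO libraries (ZT18 minus ZT7, 1 mouse each), by complex and genome of origin, with 1 point per gene and a bar at the median. All 13 mitochondrial-encoded points and 66 of 81 nuclear-encoded points lie below 0.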

How the data were processed

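Estimated counts per gene, not normalized, were deposited by the authors, who ran nf-core/rnaseq on single-end reads against GRCm39 and quantified with Salmon 1.9.0. The submitters' processing notes also name STAR, SAMtools 1.16.1, cutadapt 3.4 and StringTie 2.2.1. The KO counts were deposited as a separate table. Salmon divides reads that match several genes, which affects the mitochondrial genes and their nuclear copies, and the strand setting is not given in the sources used here.

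Counts were rounded. The minimum for testing a gene was a mean of 1 CPM in each of Ctrl and SCNx, library sizes were summed over these genes and scaled with TMM in edgeR 4.0.16 (R 4.3.3), and CPM values are on this scale. One quasi-likelihood model held a mean per group, another a mean, a 24 h cosine and a sine per group, over 24 libraries. Adjusted p-values are Benjamini-Hochberg over all genes tested, at 0.05. The SE of a fold change is from the F statistic and that of an amplitude from the residual SD of log2(CPM + 0.5). Every time point is a different mouse, so mouse and time of day cannot be told apart. The p-values of levels are set against a spread that holds both. Those of rhythms are set against the spread around the fitted curves. KO was scaled with TMM among its own 2 libraries and only described. Depth limits precision little for most members, since the smallest Ctrl or SCNx library held 38751162 counts. The lowest member, Ndufa4l2, ran from 0.547 to 1.60 CPM in Ctrl, so its values are less precise.

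The members and lists were chosen with earlier results of these data known. Genes named are all mitochondrial-encoded members, members called in any test, the 3 with the smallest p in each test, the catalytic core and tissue isoform lists, and the extremes of each complex. In the KO libraries and pathway lists, genes with extreme values or called were named after their values were seen. On simulated counts, 81.1% of log2 level changes of 0.5 and 22.2% of those of 0.2 were called in the comparison of SCNx with Ctrl, as were 42.7% of rhythms of amplitude 0.3 and 1.02% of those of 0.15 in Ctrl, over 13601 to 13606 genes. Each of these simulations changed between 196 and 199 genes. Nuclear copies were matched to mitochondrial transcripts with blastn on GENCODE M21, which also gave transcript lengths. Alternatives used DESeq2 1.42.0 and limma 3.58.1, other scalings, filters, left-out libraries and models. Python 3.11.15, numpy 2.4.6, pandas 2.3.3 and matplotlib 3.10.9 were used.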

Additional observations from a re-analysis of the deposited data

How the results depend on the processing

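Of the counts of called members, only that of nuclear-encoded members rhythmic in Ctrl moved, from 1 to 2, with SCNx CT32 left out alone or together with Ctrl CT4, and with a separate fit per group, where Ndufs1 joined Ndufb2. Leaving out single libraries gave 1 to 2 for this count and 0 for every other. The median log2 fold change ranged from -0.028 to 0.020 for nuclear-encoded members and from 0.029 to 0.14 for mitochondrial-encoded members over these omissions, so the sign of the former rests on single mice, while under the other settings it ranged from -0.039 to 0.022 and the latter from 0.071 to 0.15. Taking the median of log2 CPM in each class in place of sums moved the log2 ratio of mitochondrial-encoded to nuclear-encoded levels from 2.34 to 3.93 in Ctrl, from 2.50 to 4.04 in SCNx and from 2.66 to 5.12 in KO. With library totals as the scale, the median log2 difference between the KO libraries moved from -0.31 to -0.19 for nuclear-encoded members. Over all genes it moved from 0.0023 to 0.12. Adding the nuclear copies to their partners, chosen after seeing the data, called 0 mitochondrial-encoded members and gave a median log2 fold change of 0.12. No replicate block changed a count: with circadian time as a block, 0 nuclear-encoded and 0 mitochondrial-encoded members differed in level. The cause of these movements was not tested. In simulated counts few rhythms with an amplitude of 0.15 were recovered. Only 197 of 13606 genes were rhythmic there, whereas 1459 of 13697 were called in Ctrl, so the adjusted threshold was not alike. Polg was called in Ctrl at a smaller fitted amplitude. How many small rhythms of members were missed therefore cannot be read from the simulation.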
